A study of Mus musculus with 12 samples.

Results

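A panel of 37 transcripts typical of macrophages, monocytes, neutrophils and dendritic cells was read in sorted regulatory T cells (Tregs), as a reading of how much RNA of other blood cells the sort may have carried along. The members were the rows of the deposited table, among 17955 genes, whose symbols were on the panel, and all 37 were found. They comprise 3 genes of plasmacytoid dendritic cells, 8 of conventional dendritic cells, 10 of the macrophage and monocyte surface, 4 Fc receptors and their signalling adaptors, 7 lysosomal, phagocytic and secreted proteins, 3 genes of neutrophils and 2 transcription factors. Several are also transcribed in lymphocytes, so membership alone does not assign a transcript to a cell.

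The Tregs were C57BL/6 cells carrying CD4, CD25 and YFP, taken by flow cytometry from spleen and lymph node at 7 weeks of age. Every mouse carried Foxp3 YFP-Cre, a Cre recombinase linked to a yellow fluorescent protein and expressed from the Treg gene Foxp3. WT mice were TKT+/+ and cKO mice TKT fl/fl, so that transketolase, an enzyme of the pentose phosphate pathway, was removed only where Foxp3 is expressed. DMαKG, a cell-permeable ester of α-ketoglutarate, or vehicle was given in drinking water from pregnancy into adulthood. The 4 groups of 3 libraries were WT with vehicle (replicates 2, 3 and 4), cKO with vehicle (2, 3 and 4), WT with DMαKG (1, 2 and 3) and cKO with DMαKG (1, 2 and 3). The p-values below rest on the spread between the 3 libraries of a group, estimated from all 4 groups together.

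Macrophages of the spleen engulf old red cells and debris. They carry the growth factor receptor encoded by Csf1r and secrete complement C1q, whose A, B and C chains come from the neighbouring genes C1qa, C1qb and C1qc. Conventional dendritic cells present antigen to T cells, and plasmacytoid dendritic cells make type I interferon after sensing viral RNA through Tlr7. Neutrophils hold large amounts of calprotectin, the dimer of S100a8 and S100a9. Tregs touch these cells in the tissue, and a sort gate may let some of them through.

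Promoters are shown for a pair of neighbouring complement genes whose transcripts moved together, for Ctss, the most abundant member, and for Siglech, the most variable dendritic cell member that was tested. Each is the 250 bases before the RefSeq start taken for that promoter on GRCm38.p6. For C1qc and Siglech that start lies inside the gene's annotated span, which ends at 136892936 for C1qc and begins at 55768154 for Siglech. Part of each of these windows is therefore within the gene. Capitals mark GAGGAA, or its reverse complement TTCCTC, the core bound by the myeloid transcription factor PU.1, which Spi1 encodes.
C1qb promoter, chr4:136886201-136886450, minus strand: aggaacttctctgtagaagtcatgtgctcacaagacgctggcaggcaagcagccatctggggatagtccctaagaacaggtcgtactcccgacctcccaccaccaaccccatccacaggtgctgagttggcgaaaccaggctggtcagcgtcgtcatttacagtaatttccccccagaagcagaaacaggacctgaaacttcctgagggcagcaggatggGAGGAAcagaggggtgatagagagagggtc
C1qc promoter, chr4:136892915-136893164, minus strand: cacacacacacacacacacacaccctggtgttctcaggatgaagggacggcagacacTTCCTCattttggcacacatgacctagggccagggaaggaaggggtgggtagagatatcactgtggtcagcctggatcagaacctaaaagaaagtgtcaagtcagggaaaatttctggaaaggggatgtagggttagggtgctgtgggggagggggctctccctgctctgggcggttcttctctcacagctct
Ctss promoter, chr3:95526536-95526785, plus strand: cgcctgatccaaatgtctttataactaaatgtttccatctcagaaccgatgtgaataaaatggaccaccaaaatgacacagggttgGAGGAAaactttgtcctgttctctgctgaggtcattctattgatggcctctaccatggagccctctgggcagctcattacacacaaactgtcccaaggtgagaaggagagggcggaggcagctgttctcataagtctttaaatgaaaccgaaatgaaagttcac
Siglech promoter, chr7:55767934-55768183, plus strand: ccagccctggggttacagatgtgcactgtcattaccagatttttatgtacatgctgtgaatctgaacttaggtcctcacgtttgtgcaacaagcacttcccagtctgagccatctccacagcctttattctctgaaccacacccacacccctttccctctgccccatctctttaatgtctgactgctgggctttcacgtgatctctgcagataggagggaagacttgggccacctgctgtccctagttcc
These letters stood in the promoter of C1qb, C1qc and Ctss but not in the window shown for Siglech. Promoters were at hand for 26 of the 37 members, and 12 of them (46.2%) held the letters on either strand, against 6252 of 27025 genes (23.1%). A match is a run of letters and not a shown binding site.

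The libraries held 1.57e+07 to 1.89e+07 summed estimated counts. Tkt stood at 26.2 to 41.8 CPM (counts scaled to library size) in the cKO libraries and at 102 to 194 CPM in the WT libraries. The Treg factor Foxp3 was at 280 to 545 CPM and the T cell receptor subunit Cd3e at 159 to 349 CPM in all 12 libraries, with both lowest in cKO DMαKG replicate 3. Y-linked Ddx3y was at 0.0555 CPM in WT vehicle replicate 3, 0.518 and 0.509 CPM in cKO DMαKG replicates 1 and 3, 22.6 CPM in WT DMαKG replicate 2 and 109 to 241 CPM in the other 8 libraries. In bulk RNA, fewer cells of a type and less RNA per cell cannot be told apart.

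Per transcript length, the members spanned a wide range. Ctss, the lysosomal protease cathepsin S, had the highest mean level, 428 TPM (a unit scaled by transcript length and library size) over the 12 libraries. Next came Lyz2, the macrophage lysozyme, at 46.7 TPM, the transcription factor Cebpb at 45.1 TPM and Irf8, a factor needed for dendritic cells and also transcribed in lymphocytes, at 32.2 TPM. Vcam1, an adhesion molecule of spleen macrophages, and the 3 C1q genes followed at 22.3 to 26.6 TPM. At the low end, the dendritic cell genes Clec9a, Batf3 and Clec10a had means of 0.300, 0.412 and 0.578 TPM. Summed over all 37 members, the level ran from 628 TPM in cKO vehicle replicate 4 to 1100 TPM in cKO DMαKG replicate 3. Ctss alone held 417 and 535 TPM of these 2 sums, so they are not read as an amount of carried-over RNA. The 10 macrophage and monocyte surface genes summed to 13.6 to 123 TPM, and the 4 Fc receptor and adaptor genes to 8.60 to 56.9 TPM. The summed level of 10 genes shared by all T cells ran from 6139 to 7113 TPM.

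The macrophage transcripts varied widely within each group. Summed over C1qa, C1qb and C1qc, the level was 60.5, 53.7 and 17.7 CPM in WT vehicle replicates 2, 3 and 4, and 9.15, 37.1 and 17.8 CPM in cKO vehicle replicates 2, 3 and 4. With DMαKG the sum was 28.6, 61.2 and 13.5 CPM in WT replicates 1, 2 and 3, and 22.2, 20.4 and 70.0 CPM in cKO replicates 1, 2 and 3. The range was 7.65-fold, and the groups overlapped. High values stood in WT vehicle replicates 2 and 3, WT DMαKG replicate 2 and cKO DMαKG replicate 3, which come from 3 of the 4 groups.

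**Figure D1:**
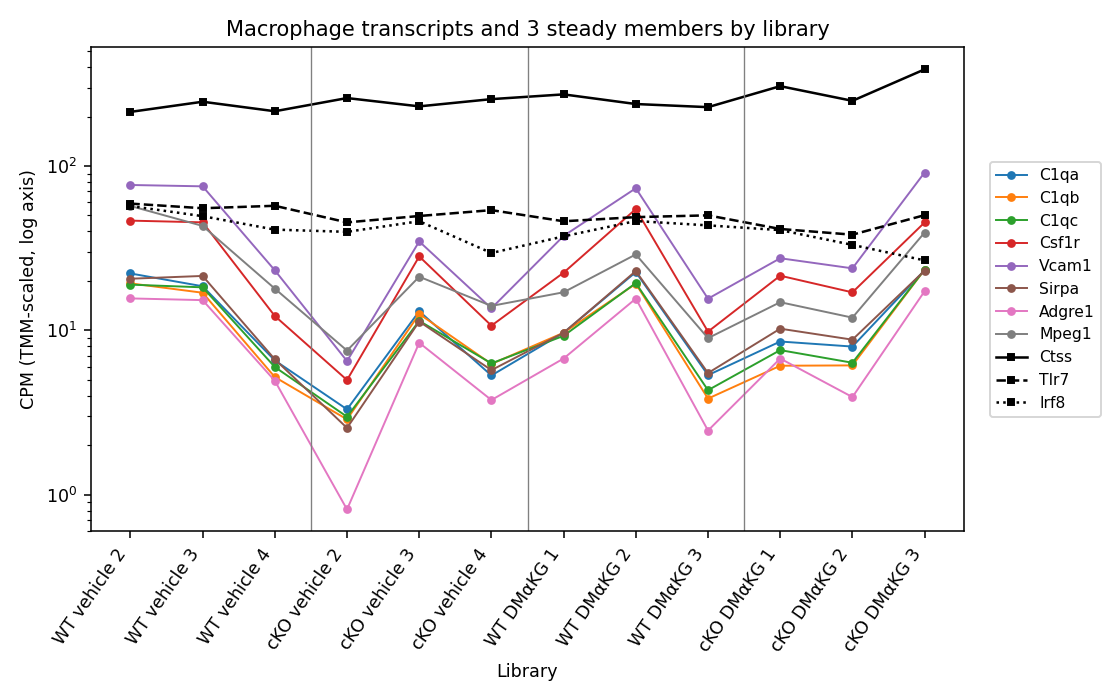
CPM on a log axis for 8 macrophage members (coloured lines) and for Ctss, Tlr7 and Irf8 (black) in the 12 libraries, with vertical lines between groups. The coloured lines rise and fall together, with the lowest summed C1q of 9.15 CPM in cKO vehicle replicate 2, while the black lines stay nearly level.

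The 3 C1q chains kept nearly the same proportions in every library. C1qa was at 22.2, 18.5 and 6.56 CPM in WT and 3.30, 13.1 and 5.31 CPM in cKO with vehicle, and at 9.67, 22.6 and 5.34 CPM in WT and 8.55, 7.96 and 23.2 CPM in cKO with DMαKG. C1qb ran from 2.87 to 23.4 CPM and C1qc from 2.98 to 23.4 CPM, both lowest in cKO vehicle replicate 2 and highest in cKO DMαKG replicate 3. Per count of C1qa, the count of C1qb lay between 0.712 and 1.17 and that of C1qc between 0.797 and 1.18. The genes lie side by side on chromosome 4 of GRCm38, from 136880126 to 136886200 for C1qb, 136889801 to 136892936 for C1qc and 136895916 to 136898844 for C1qa.

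Other macrophage members kept close to C1q. Csf1r, the receptor for the macrophage growth factor, was at 46.5, 45.4 and 12.2 CPM in WT and 4.98, 28.2 and 10.7 CPM in cKO with vehicle. With DMαKG it was at 22.4, 54.7 and 9.82 CPM in WT and 21.5, 17.0 and 45.3 CPM in cKO. Its lowest library was again cKO vehicle replicate 2, and its groups overlapped. Per count of C1qa, Csf1r stayed between 1.51 and 2.52, and Sirpa, an inhibitory receptor that reads CD47, between 0.770 and 1.20. Fcer1g, the signalling chain shared by Fc receptors, was at 5.70, 2.78 and 1.52 CPM in WT and 0.812, 2.86 and 1.13 CPM in cKO with vehicle, and at 2.05, 4.25 and 0.747 CPM in WT and 1.81, 1.15 and 4.90 CPM in cKO with DMαKG. Its groups overlapped as well.

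To put a number on this, the SD over the 12 libraries of each gene's log2 CPM was set beside the SD of its log2 count relative to the summed C1q count, with 0.5 added to the counts. C1q was taken as the reference after its values had been seen, so these are descriptions with no test. The spread fell from 0.99 to 0.21 for Sirpa, from 1.09 to 0.24 for Csf1r, from 0.98 to 0.28 for Fcer1g and from 1.18 to 0.32 for Vcam1. Of the 30 tested members other than C1q, 18 (60.0%) varied less relative to C1q than alone, against 408 of 12903 genes tested (3.16%). The fall was small for Flt3 (from 0.89 to 0.87) and Clec7a (from 0.72 to 0.68). These 18 included 8 of 10 macrophage and monocyte surface genes and all 4 Fc receptor and adaptor genes. Outside the panel the same held for 11 of 18 other macrophage genes, such as Hmox1, which breaks down haem (from 0.87 to 0.25), and for 9 of 11 B cell genes and 4 of 7 erythroid genes. It held for 4 of 10 plasmacytoid, 3 of 10 conventional dendritic cell and 4 of 10 MHC class II genes outside the panel. Shares were lower at 1 of 13 monocyte, 1 of 8 mature dendritic cell and 1 of 5 neutrophil genes outside the panel. It held for 0 of 10 genes shared by T cells and 0 of 11 Treg genes. The log2 of summed C1q CPM had an SD of 0.96, and a gene varying far less than that cannot pass, whatever its course. The median SD alone was 0.25 over all tested genes, 0.16 over the T cell genes and 0.25 over the Treg genes. The low shares of the T cell and Treg genes were therefore largely set by small spread and do not show how these genes moved with C1q. The plasmacytoid, conventional and mature dendritic cell lists outside the panel had median SDs of 0.48, 0.52 and 0.51. Small spread therefore also limits what their shares show.

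**Figure D2:**
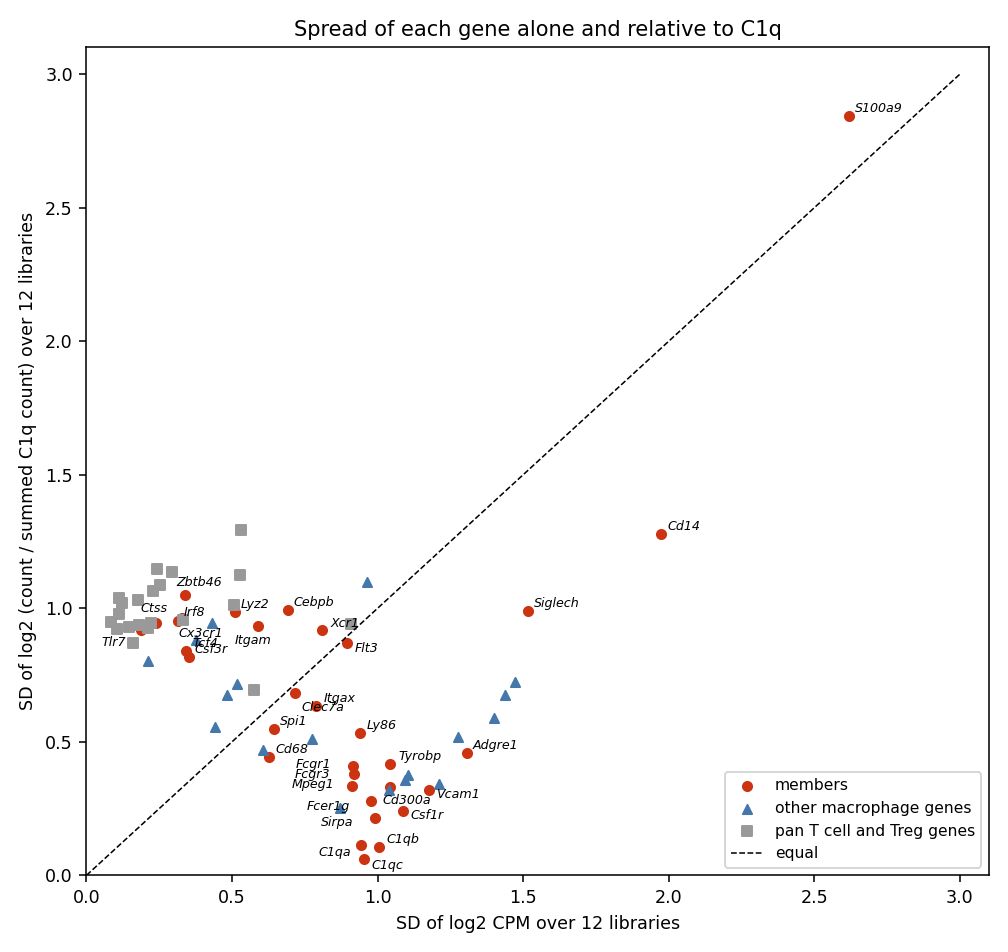
SD over the 12 libraries of each gene's log2 CPM (x axis) and of its log2 count relative to the summed C1q count (y axis) for 33 tested members, 18 other macrophage genes and 21 pan T cell and Treg genes; the dashed line marks equal spread. Genes such as Csf1r and Sirpa lie far below the line. Ctss, Tlr7 and Irf8 lie above it among the T cell genes, where any gene of small spread must lie.

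A further 12 tested members did not follow C1q in this sense, namely Ctss, Tlr7, Irf8, Lyz2, Cebpb, Xcr1, Tcf4, Zbtb46, Itgam, Cx3cr1, Csf3r and S100a9. Of these, Ctss, Tlr7, Irf8, Tcf4, Zbtb46, Cx3cr1 and Csf3r had an SD alone of only 0.19 to 0.35. They varied too little to pass, so the measure does not show whether they moved with C1q. Lyz2 and Itgam, with an SD alone of 0.51 and 0.59, could pass only by following C1q closely. Ctss was at 214, 246 and 215 CPM in WT and 259, 231 and 255 CPM in cKO with vehicle, and at 273, 238 and 228 CPM in WT and 306, 249 and 388 CPM in cKO with DMαKG. The highest value, in cKO DMαKG replicate 3, was 1.81-fold the lowest. Tlr7 was at 59.1, 55.4 and 57.3 CPM in WT and 45.4, 49.6 and 53.9 CPM in cKO with vehicle, and at 46.1, 48.9 and 50.1 CPM in WT and 41.4, 38.2 and 50.2 CPM in cKO with DMαKG. All WT vehicle libraries were above the other 9 libraries for Tlr7, by little. Relative to C1q the spread of Ctss rose from 0.24 to 0.94 and that of Tlr7 from 0.19 to 0.92, both near the spread of C1q itself (0.96).

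Irf8 was at 57.1, 49.5 and 41.0 CPM in WT and 39.8, 46.1 and 29.5 CPM in cKO with vehicle, and at 37.3, 46.3 and 43.5 CPM in WT and 40.7, 33.1 and 26.6 CPM in cKO with DMαKG. Its spread rose from 0.31 to 0.95 relative to C1q. Lyz2, often used as a macrophage marker, was at 24.2, 18.0 and 17.0 CPM in WT and 21.8, 11.3 and 20.4 CPM in cKO with vehicle, and at 34.2, 17.3 and 16.1 CPM in WT and 15.9, 25.6 and 41.0 CPM in cKO with DMαKG. Per count of C1qa it ranged from 0.767 to 6.59, wider than Csf1r, and its groups overlapped. Its spread was 0.51 alone and 0.98 relative to C1q. Summed C1q itself ranged 7.65-fold, so the width of the ratio is not by itself a measure of Lyz2. All 12 deposited counts of Lyz2, Tlr7, Xcr1, Flt3, Zbtb46, Tcf4, Cx3cr1 and Csf3r were not whole numbers, and no source used here says how the fractions arose.

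The remaining followers and non-followers can be given by range. Cebpb, a factor of myeloid cells that T cells also transcribe, ran from 8.87 to 49.4 CPM, with its 3 lowest values in cKO vehicle replicate 4, WT vehicle replicate 4 and WT DMαKG replicate 3. Summed C1q was also low in those libraries, at 13.5 to 17.8 CPM, but it was lower still in cKO vehicle replicate 2, where Cebpb was at 31.5 CPM. Spi1, which encodes PU.1, ran from 0.650 to 2.82 CPM and varied less relative to C1q (0.55) than alone (0.64). Adgre1, the macrophage surface protein F4/80, ran from 0.812 to 17.3 CPM and Mpeg1, a pore-forming protein of macrophages, from 7.53 to 57.1 CPM. Both were lowest in cKO vehicle replicate 2. The high-affinity antibody receptor Fcgr1 ran from 0.271 to 2.16 CPM and the low-affinity receptor Fcgr3 from 0.907 to 4.83 CPM. The lysosomal protein Cd68 ran from 2.45 to 9.03 CPM, the inhibitory receptor Cd300a from 0.542 to 5.84 CPM, the β-glucan receptor Clec7a from 0.640 to 3.31 CPM and Ly86, the partner of the receptor Cd180, from 0.325 to 3.84 CPM. All of these varied less relative to C1q than alone, though Clec7a by little (0.68 against 0.72). The integrin CD11b, encoded by Itgam, ran from 0.635 to 2.89 CPM and the fractalkine receptor Cx3cr1 from 0.722 to 1.44 CPM, and neither did.

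**Figure D3:**
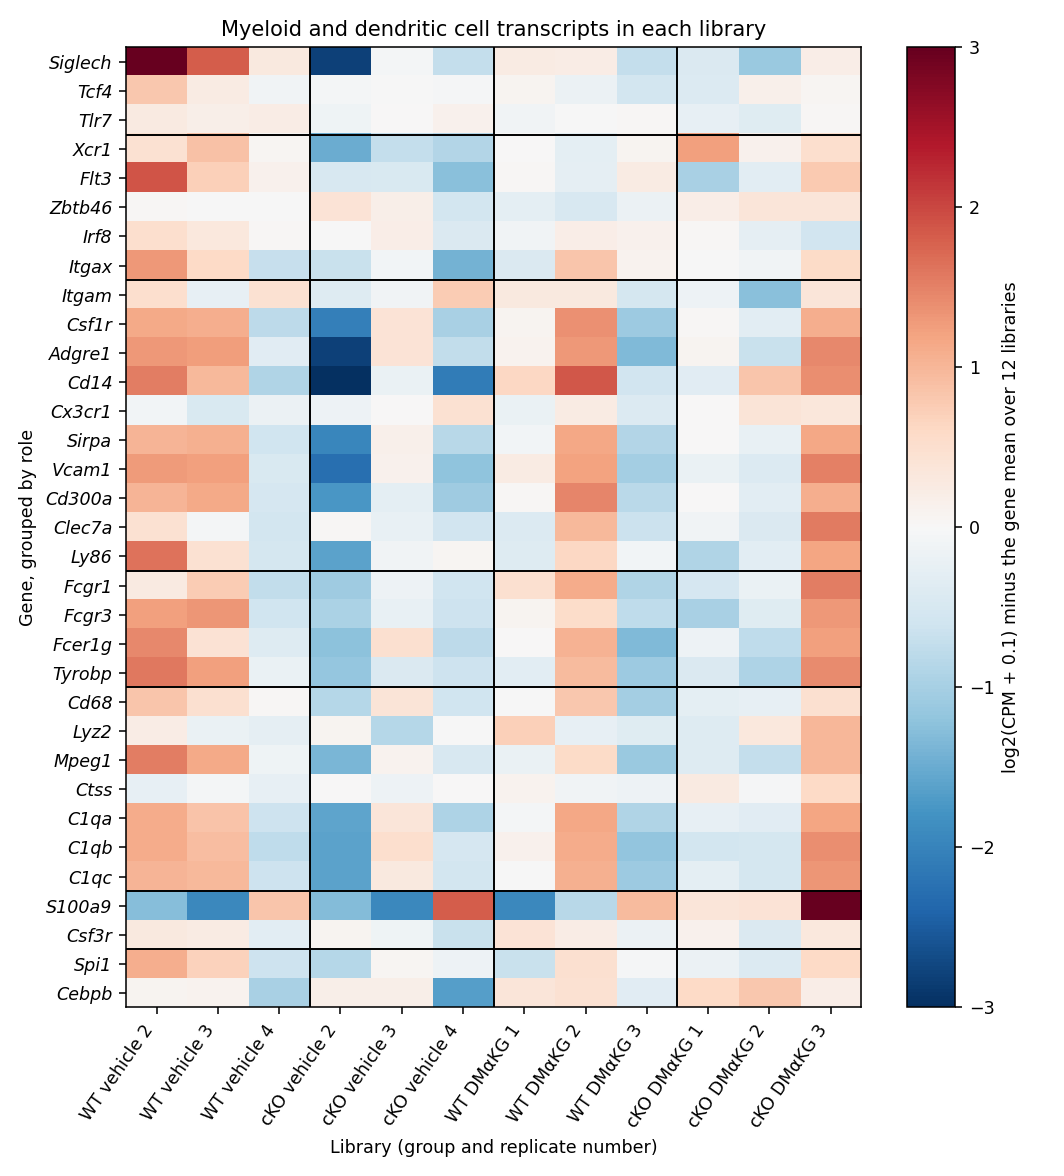
Heat map of log2(CPM + 0.1) minus each gene's mean over the 12 libraries, for the 33 tested members (rows, grouped by role) in the 12 libraries (columns); red is above and blue below the mean, and the colours end at 3 and -3. The column of cKO vehicle replicate 2 is the bluest, being the lowest of all libraries for 16 of 33 members, and WT vehicle replicate 2 and cKO DMαKG replicate 3 are the reddest, being the highest for 12 and 11.

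Among the 33 tested members, cKO vehicle replicate 2 was among the 3 lowest libraries for 23, WT DMαKG replicate 3 for 22 and cKO vehicle replicate 4 for 17. Among the 3 highest, cKO DMαKG replicate 3 stood for 24, WT vehicle replicate 2 for 23, WT vehicle replicate 3 for 17 and WT DMαKG replicate 2 for 16. Each of the 4 groups therefore held at least 1 library near an end of the range.

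With vehicle, cKO libraries held less of most members than WT libraries, but no member passed an adjusted p of 0.05 in edgeR's quasi-likelihood test over all genes. The log2 fold change of cKO against WT was below 0 for 29 of 33 tested members, against 48.4% of all genes tested, and the median was -1.05, against 0.01 over all genes. Many members rose and fell together over the libraries, so the 33 are not independent results in this or the later comparisons. The number of members called was 0 of 33, and 0.062% of all genes were called. DESeq2 called 2 of the 32 members to which it gave an adjusted p (Siglech and Xcr1, adjusted p of 0.00314 and 0.0458), against 0.775% of genes. Limma voom called 1 of 33 (Xcr1, adjusted p = 0.0484), against 1.9% of genes. At an unadjusted p under 0.05, edgeR marked 9 of 33 members, all lower, against 7.29% of genes in either direction. Members whose cKO libraries all lay below all WT libraries were Siglech, Xcr1, Flt3, Tlr7 and Tyrobp, 5 of 33, against 7.01% of genes, and 0 lay above, against 8.29%. The median SE of a log2 fold change was 0.62 over the members and 0.18 over all genes.

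Siglech, a surface receptor of mouse plasmacytoid dendritic cells, was at 21.4, 9.11 and 3.09 CPM in WT and 0.271, 2.42 and 1.50 CPM in cKO with vehicle. With DMαKG it was at 2.99, 2.95 and 1.49 CPM in WT and 1.81, 1.10 and 2.86 CPM in cKO. High values stood in WT vehicle replicates 2 and 3 and nowhere else, and replicate 4 of that group was close to the other groups. The log2 fold change of cKO against WT with vehicle was -3.00 (SE 0.76, edgeR adjusted p = 0.277). Of the other plasmacytoid genes, Tlr7 is given above. Tcf4, which encodes the factor E2-2 that sets plasmacytoid identity, was at 14.2, 9.66 and 7.45 CPM in WT and 7.75, 7.96 and 7.94 CPM in cKO with vehicle, and at 8.55, 7.14 and 5.44 CPM in WT and 6.09, 9.06 and 8.39 CPM in cKO with DMαKG. Its highest value was in the library with the highest Siglech, and its groups overlapped.

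Xcr1, the chemokine receptor of cross-presenting dendritic cells, was at 1.98, 2.66 and 1.47 CPM in WT and 0.433, 0.824 and 0.722 CPM in cKO with vehicle. With DMαKG it was at 1.41, 1.13 and 1.49 CPM in WT and 3.43, 1.56 and 2.03 CPM in cKO. With vehicle all cKO values lay below all WT values, and with DMαKG all lay above. The log2 fold change of cKO against WT was -1.61 with vehicle (SE 0.38, edgeR adjusted p = 0.199) and 0.79 with DMαKG (SE 0.36, adjusted p = 0.461). Its counts were low, from 7.98 to 52.8 per library.

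Clec9a, the receptor by which the same dendritic cells sense dead cells, had too few counts to be tested. Its counts were 42, 17 and 6 in WT and 1, 3 and 1 in cKO with vehicle, and 2, 6 and 3 in WT and 3, 1 and 5 in cKO with DMαKG. Like Siglech, it was high in WT vehicle replicates 2 and 3 and unlike Xcr1 it was low, at 5 counts or fewer, in every cKO DMαKG library. Clec9a overlaps Clec12b and Flt3 overlaps Gm26597 in the annotation, and it is not known whether reads were counted by strand, so the values of both are uncertain.

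Flt3, the growth factor receptor of dendritic cell precursors, was at 4.86, 2.11 and 1.36 CPM in WT and 0.867, 0.879 and 0.464 CPM in cKO with vehicle. With DMαKG it was at 1.29, 1.02 and 1.49 CPM in WT and 0.583, 0.981 and 2.23 CPM in cKO. The vehicle groups did not overlap and the DMαKG groups did; the log2 fold change with vehicle was -1.91 (SE 0.54, edgeR adjusted p = 0.335). Itgax, the integrin CD11c, ran from 0.567 to 4.29 CPM, with the same library, WT vehicle replicate 2, at the top. Clec10a and Batf3 were not tested either, at no more than 1.52 and 0.324 CPM.

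**Figure D4:**
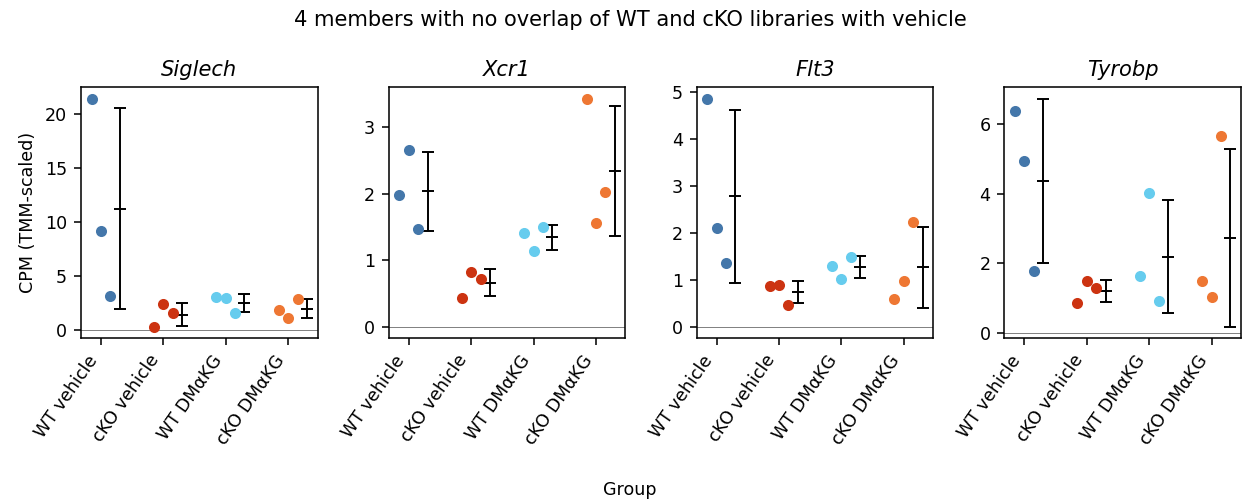
CPM of Siglech, Xcr1, Flt3 and Tyrobp in each library (points) by group, with the mean and SD of 3 libraries (black bars). With vehicle the cKO points lie below the WT points in each panel, and for Xcr1 they lie above the WT points with DMαKG; for Siglech, WT vehicle libraries at 21.4 and 9.11 CPM stand above all others.

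Tyrobp, the adaptor DAP12 of myeloid and natural killer receptors, was at 6.38, 4.94 and 1.78 CPM in WT and 0.867, 1.48 and 1.29 CPM in cKO with vehicle. With DMαKG it was at 1.64, 4.03 and 0.907 CPM in WT and 1.49, 1.04 and 5.66 CPM in cKO. Only the vehicle groups were apart, with a log2 fold change of -1.84 (SE 0.71, edgeR adjusted p = 0.575), and WT vehicle replicate 4 was near the cKO values. Relative to C1q its spread was 0.42, against 1.04 alone. Cd14, the receptor for bacterial lipopolysaccharide, was at 2.43, 1.61 and 0.367 CPM in WT and 0, 0.659 and 0.103 CPM in cKO with vehicle, and at 1.23, 3.06 and 0.480 CPM in WT and 0.583, 1.44 and 2.16 CPM in cKO with DMαKG. Its groups overlapped in both treatments.

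By role, the vehicle comparison gave a median log2 fold change of -1.30 over 5 conventional dendritic cell genes, -1.28 over 10 macrophage and monocyte surface genes and -1.28 over 4 Fc receptor and adaptor genes. Over 7 lysosomal, phagocytic and secreted genes it was -0.93, with Ctss at 0.14 as the exception above 0. It was -0.40 over the 3 plasmacytoid genes and -0.46 over the 2 transcription factors, and 0.34 over the 2 tested neutrophil genes, of which 1 was higher and 1 lower. Summed C1q was 60.5 and 53.7 CPM in WT replicates 2 and 3 and 9.15 CPM in cKO replicate 2, and the part of these libraries in the vehicle comparison was not tested beyond leaving out single libraries. The median over members then lay between -1.51 and -0.57, the weakest value coming without WT vehicle replicate 2. It was -0.60 with the level of Y-linked genes as a covariate.

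Lists of other cell types went both ways in this comparison, and edgeR called 0 genes of them. Of 18 tested macrophage genes outside the panel, 16 were lower in cKO with vehicle (median log2 fold change -0.52), and 0 were called by edgeR, with 3 at an unadjusted p under 0.05. Of 11 B cell genes, 9 were lower (median -0.29), with 0 called and 1 at an unadjusted p under 0.05. Over all genes, 48.4% were below 0 and 7.29% had an unadjusted p under 0.05. Of 10 other plasmacytoid genes 8 were lower (median -0.57), of 10 other conventional dendritic cell genes 8 (median -0.25), and of 7 erythroid genes 6 (median -0.54). In the opposite direction, all 8 mature dendritic cell genes were higher (median 0.31), and 13 monocyte genes outside the panel split into 7 lower and 6 higher (median -0.03). Being on these lists does not assign a transcript to a cell either. Ccr7, Cd83 and Nr4a1 had means of 513, 147 and 419 TPM, far above the C1q genes at 22.3 to 25.4 TPM. Natural killer, platelet and stromal lists had medians of 0.12, 0.10 and 0.12. Summed TPM of 12 B cell genes ran from 25.9 to 60.3 and that of 9 erythroid genes from 6.27 to 98.4, the erythroid sum being lowest in cKO vehicle replicate 2 and highest in WT vehicle replicate 2. The median was -0.01 over 10 genes shared by T cells and 0.16 over 11 Treg genes. The part of these other cells in the result was not tested.

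In WT mice, the members were on balance slightly lower with DMαKG, without a call. The log2 fold change of DMαKG against vehicle was below 0 for 24 of 33 members, against 50.2% of all genes, with a median of -0.34, against 0.00 over all genes, and of -0.19 with the Y-linked covariate. Leaving out single libraries moved the median between -0.93, without WT DMαKG replicate 2, and -0.09, without WT DMαKG replicate 3. EdgeR, DESeq2 and limma voom each called 0 members, against 0%, 0.0155% and 0.062% of all genes. At an unadjusted p under 0.05 edgeR marked 3 members, against 2.73% of genes: Siglech (-2.18, SE 0.72), Flt3 (-1.12, SE 0.51) and Tcf4 (-0.57, SE 0.25). Siglech, Tlr7 and Zbtb46 had every DMαKG library below every vehicle library, 3 of 33 against 3.86% of genes, and 0 had every one above, against 4.59%. For Siglech the gap was between 3.09 and 2.99 CPM.

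In cKO mice, DMαKG went with higher levels of most members, again without a call by edgeR. The log2 fold change was below 0 for 4 of 33 members, against 49.6% of all genes, and the median was 0.77, against 0.00. EdgeR called 0 of 33 members and 0% of all genes, while DESeq2 and limma voom each called 1, Xcr1, with adjusted p of 0.00798 and 0.0323, against 3.34% and 3.49% of genes. At an unadjusted p under 0.05 edgeR marked 3 of 33, against 17.3% of genes: Xcr1 (1.81, SE 0.38, adjusted p = 0.132), Cd14 (2.44, SE 1.03, adjusted p = 0.261) and Ctss (0.34, SE 0.15, adjusted p = 0.27). Xcr1 and Cebpb had every DMαKG library above every vehicle library, 2 of 33 against 8.91% of genes, and 0 had every one below, against 12.2%. The median was 0.09 without cKO DMαKG replicate 3, 0.15 with limma voom, 0.17 with the Y-linked covariate and 0.42 with limma on log2(TPM + 1). This comparison and that of cKO against WT with vehicle share the 3 cKO vehicle libraries, so their opposite signs are not independent.

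Beside the members, lists of other cell types are read against the same 49.6% of genes below 0 and 17.3% with an unadjusted p under 0.05. MHC class II genes, which dendritic cells, B cells and macrophages transcribe, were higher in all 10 tested cases (median log2 fold change 0.99), with 0 called by edgeR and 6 at an unadjusted p under 0.05. All 11 B cell genes were higher too (median 0.99), with 0 called and 3 at an unadjusted p under 0.05. Of 18 macrophage genes outside the panel, 16 were higher (median 0.63), with 0 called and 3 at an unadjusted p under 0.05. Summed MHC class II genes were at 433, 411 and 546 TPM in cKO DMαKG replicates 1, 2 and 3, against 322, 353 and 228 TPM in cKO vehicle replicates 2, 3 and 4. Summed macrophage genes outside the panel overlapped between these groups, at 534, 497 and 671 TPM against 434, 548 and 421 TPM. Single abundant genes weigh on both sums: over the 12 libraries Ctsb had a mean of 340 TPM and Cd74 of 148 TPM. H2-Aa alone overlapped between the groups, at 28.7, 24.9 and 101 TPM with DMαKG against 17.1, 28.6 and 16.1 TPM with vehicle. Of 7 erythroid genes, 6 were lower (median -0.49), and of 13 monocyte genes outside the panel 7 were lower (median -0.09), with 0 called in either list.

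With DMαKG, cKO and WT libraries were close in most members. The log2 fold change of cKO against WT was below 0 for 11 of 33 members, against 50% of genes, and the median was 0.15, against 0.00. That sign was not stable: the median was -0.58 without cKO DMαKG replicate 3, -0.38 with limma voom and -0.32 with the Y-linked covariate. EdgeR, DESeq2 and limma voom called 0 members, against 0.186%, 1.11% and 1.84% of all genes. At an unadjusted p under 0.05 edgeR marked 4 of 33, against 10.4% of genes: Xcr1, Zbtb46, Ctss and S100a9. Xcr1 and Zbtb46 had every cKO library above every WT library, 2 of 33 against 7.92% of genes, and 0 had every one below, against 7.04%.

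Zbtb46, a factor of conventional dendritic cells, was at 3.84, 3.78 and 3.72 CPM in WT and 5.09, 4.28 and 2.53 CPM in cKO with vehicle, and at 3.05, 2.66 and 3.31 CPM in WT and 4.34, 4.91 and 4.90 CPM in cKO with DMαKG. The DMαKG groups were apart, with a log2 fold change of 0.65 (SE 0.24, edgeR adjusted p = 0.368). Its locus overlaps Abhd16b, Lime1 and Zgpat, so its counts are uncertain. Ctss had a log2 fold change of 0.35 there (SE 0.15, edgeR adjusted p = 0.427).

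S100a8 and S100a9 counts were highest in cKO DMαKG replicate 3, which held 82.1% and 73.0% of all their counts over the 12 libraries. Counts of S100a8 were 1, 1 and 6 in WT and 0, 2 and 14 in cKO with vehicle, and 0, 2 and 10 in WT and 3, 1 and 183 in cKO with DMαKG. Counts of S100a9 were 1, 0 and 11 in WT and 1, 0 and 24 in cKO with vehicle, and 0, 2 and 12 in WT and 6, 7 and 173 in cKO with DMαKG. Below that library, the next 3 were the same for both genes, namely cKO vehicle replicate 4, WT DMαKG replicate 3 and WT vehicle replicate 4. Ngp and Ltf, proteins of neutrophil granules outside the panel, had 155 and 99 counts in cKO DMαKG replicate 3 and at most 29 and 23 elsewhere, so that this library held 66.2% and 58.9% of their counts. Csf3r, the receptor for the neutrophil growth factor, was level at 1.60 to 3.46 CPM. Cxcr2, a chemokine receptor of neutrophils outside the panel, had 127 to 211 counts in every library, also in those with 0 counts of S100a8. Mmp9 of the neutrophil list had 59 counts in cKO DMαKG replicate 3, within a range of 24 to 125. Camp, Lcn2 and Hp of that list had 20, 27 and 15 counts in cKO DMαKG replicate 3 and at most 7, 5 and 2 elsewhere. The same library had the most Jchain, a protein of antibody-secreting cells, at 29.8 CPM against at most 2.94 CPM elsewhere. S100a9 had a log2 fold change of 3.89 for cKO against WT with DMαKG (SE 1.70, edgeR adjusted p = 0.458), and S100a8 was not tested.

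**Figure D5:**
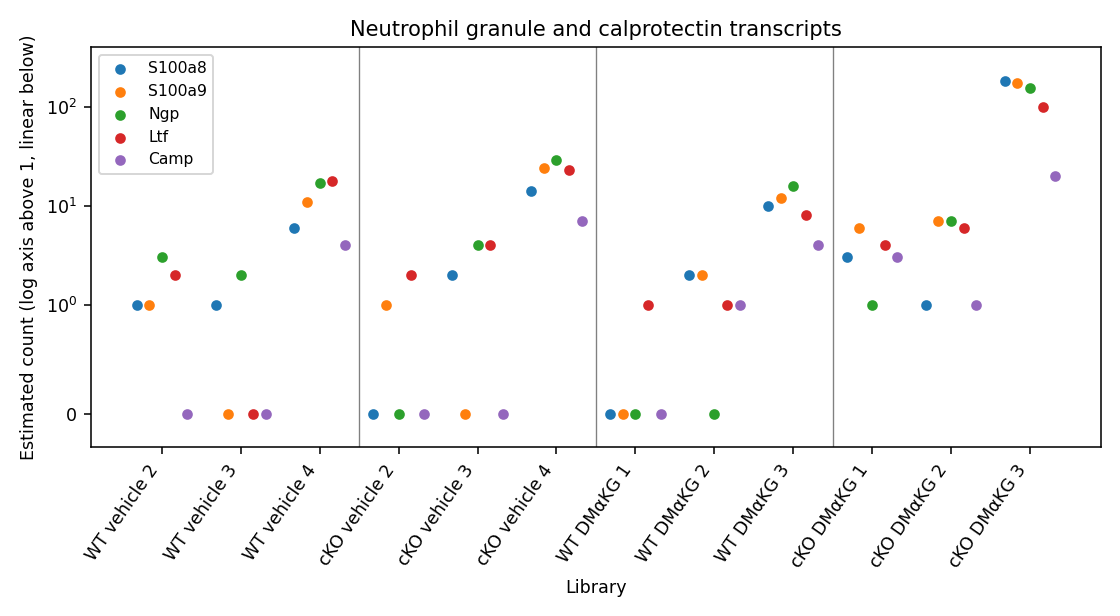
Estimated counts of the neutrophil members S100a8 and S100a9 and of 3 granule genes (Ngp, Ltf and Camp) in the 12 libraries, on an axis that is logarithmic above 1 and linear below. In cKO DMαKG replicate 3 the counts reach 183 and 173 for S100a8 and S100a9, and elsewhere they do not pass 14 and 24.

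The difference between the genotype effects under DMαKG and under vehicle was above 0 for most members. This interaction was below 0 for 2 of 33, against 51.3% of genes, and its median was 1.20, against -0.01. EdgeR, DESeq2 and limma voom called 0 members, against 0% of genes for edgeR and 0.00775% for each of the others. At an unadjusted p under 0.05 edgeR marked Xcr1 (2.41, SE 0.52), Siglech (2.63, SE 1.06) and Flt3 (1.90, SE 0.76), 3 of 33 against 3.64% of genes, each with an adjusted p of 0.955. The median was 0.53 without cKO DMαKG replicate 3, 0.57 with limma voom and 0.41 with the Y-linked covariate.

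Averaged over treatment, cKO against WT gave a median log2 fold change of -0.42 over the members, against 0.00 over all genes, with 26 of 33 below 0, against 51.1% of genes. The median was -0.67 with limma voom, and with single libraries left out it lay between -0.86, when cKO DMαKG replicate 3 was dropped, and -0.21, when WT DMαKG replicate 2 was dropped. EdgeR called 0 of 33 and 1.01% of all genes. DESeq2 called 1 member (Siglech, adjusted p = 0.0201), against 3.09% of genes, and limma voom called 1 (Tlr7, adjusted p = 0.0396), against 8.04%. Siglech had a log2 fold change of -1.68 (SE 0.53, edgeR adjusted p = 0.197) and Irf8 of -0.35 (SE 0.14, edgeR adjusted p = 0.295), and 5 members had an unadjusted p under 0.05, against 12.8% of genes. In the same comparison edgeR called 6 genes of the lists of other cell types, of which Ccr9, a homing receptor of plasmacytoid dendritic cells and of T cells, was lower (-0.87, SE 0.16, adjusted p = 0.0213). The monocyte-list genes Ccr2 (-1.75, SE 0.28, adjusted p = 0.0152) and F13a1 (-2.11, SE 0.29, adjusted p = 0.00598) were also lower, as was Nkg7 of the natural killer list (-0.78, SE 0.16, adjusted p = 0.0379), while Fn1 (2.20, SE 0.26, adjusted p = 0.00244) and H2-Oa (0.69, SE 0.13, adjusted p = 0.0282) were higher.

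Averaged over genotype, DMαKG against vehicle gave a median of 0.19 over the members, against 0.00 over all genes, with 11 of 33 below 0, against 49.6% of genes. The median was -0.18 with limma voom, -0.03 with the Y-linked covariate and -0.12 without cKO DMαKG replicate 3, so its sign was not stable. EdgeR called 0 of 33 and 0.00775% of all genes, DESeq2 called 0 members and 2.62% of genes, and limma voom called 2 members, Tlr7 and Ctss, with adjusted p of 0.0194 and 0.0451, against 12% of genes. At an unadjusted p under 0.05 edgeR marked Tlr7 (-0.22, SE 0.08, adjusted p = 0.249), Xcr1 (0.61, SE 0.26, adjusted p = 0.288) and Ctss (0.24, SE 0.11, adjusted p = 0.304), against 15.9% of genes.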

How the data were processed

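The data were RNA-seq of sorted Tregs, 12 libraries in 4 groups of 3 taken from the sample labels. The authors deposited a single table with estimated counts, FPKM and TPM per gene and library, per the file headers. The estimated counts that the authors deposited were not normalized, and 36% of the values were not whole, so they were rounded before the tests. The FPKM and TPM that the authors deposited are scaled for transcript length and library size; FPKM was not used. Build mm10 is named in the submitters' processing notes, as are the tools featureCounts (1.5.0-p3), HISAT2 (2.0.5) and DESeq2 (1.16.1). Whether reads were counted by strand is not given.

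Genes were filtered by edgeR 4.0.16 (R 4.3.3), which kept 12903 genes and 33 of 37 members; Clec9a, Batf3, Clec10a and S100a8 were not tested. Counts were scaled by TMM, and a robust quasi-likelihood model took a mean for each group from the 12 libraries together, leaving 8 residual degrees of freedom. P-values were adjusted by Benjamini-Hochberg over all genes of each of the 7 contrasts, with a threshold of 0.05. CPM uses the scaled library sizes. The procedure was tested on simulated data, with changes put only into genes above a set level and with a common spread. It therefore does not show how well changes of low-count members are found. Alternatives were DESeq2 1.42.0, limma 3.58.1 (voom with quality weights, and a trend on log2(TPM + 1)), other scaling and filters, only the groups compared, a replicate block, a Y-linked covariate, and leaving out libraries; edgeR without robust fitting was chosen after seeing the data.

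The members, their roles, and 16 lists of other cell types were chosen with earlier results of these data known. Given in every library were members with 1 of the 3 smallest p-values of a contrast and the leading markers of each role. Vcam1, Sirpa, Cebpb, Hmox1, Jchain, Lcn2, Hp, Mmp9, the granule genes and the abundant genes named beside a list were named after their values were seen. Nothing beyond the group labels says how libraries were prepared in batches. Coordinates and promoters are from RefSeq on GRCm38.p6, which is the mm10 build; 17901 gene IDs and all 37 members matched. Counts carry no molecular identifiers.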

Additional observations from a re-analysis of the deposited data

Results flagged for a closer look

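Xcr1 differed in its genotype effect between the treatments. All 3 cKO libraries were below all 3 WT libraries with vehicle, and all 3 were above with DMαKG, and the interaction was 2.41 on the log2 scale (SE 0.52, edgeR unadjusted p = 0.00052, adjusted p = 0.955 over all genes). Levels were 0.433 to 3.43 CPM. No cause was tested.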

How the results depend on the processing

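Calls among the 33 tested members depended on the tool. EdgeR called 0 in all 7 comparisons, also with other scalings and filters and without robust fitting. The same held with the Y-linked covariate and with any single library left out (0 to 0). Limma on log2(TPM + 1) also called 0 in all 7. DESeq2 called 2 for cKO against WT with vehicle, 1 for DMαKG in cKO and 1 for the averaged genotype comparison; limma voom called 1, 1 and 1 there and 2 for averaged DMαKG. The cause was not tested. Over all genes the vehicle genotype comparison gave 8 calls with edgeR, 100 with DESeq2, 245 with limma voom and 0 on only the groups compared.

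The median log2 fold change of the interaction moved from 1.20 to 0.41 with the Y-linked covariate. With single libraries left out, medians ranged from -1.51 to -0.57 for cKO against WT with vehicle, -0.93 to -0.09 for DMαKG in WT, 0.086 to 1.16 for DMαKG in cKO (the former without cKO DMαKG replicate 3), -0.58 to 0.65 for cKO against WT with DMαKG, 0.53 to 1.80 for the interaction, -0.86 to -0.21 for the averaged genotype comparison and -0.12 to 0.37 for averaged DMαKG. Without replicate 4 of both vehicle groups and replicate 3 of WT with DMαKG, cKO against WT was -1.35 with vehicle and -0.21 with DMαKG. Of 21 member results followed singly, 0 reversed; 484 values kept their side of the threshold and 8 passed it.

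Replicate numbers are shared within a treatment, but same-numbered WT and cKO libraries correlated at -0.12, 0.14 and 0.47 with vehicle and at -0.25, -0.09 and -0.28 with DMαKG, so they were not taken as pairs. With the number as a block edgeR called 0 members in every comparison, and the vehicle genotype median was -1.01.

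Depth limits the dendritic cell members, several of which had under 10 counts in some libraries.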
